A study of Homo sapiens with 24 samples.

Results

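Gene expression after 24 h of PI103, which blocks mTOR and the class I PI3 kinases, was compared directly with expression after 24 h of (5Z)-7-oxozeaenol (oxozeaenol below), which blocks the kinase TAK1. The comparison uses 8 of the 24 libraries of the series, the 4 whose titles name PI103 and the 4 whose titles name (5Z)-7-oxozeaenol, and covers all genes of the deposited count table once its 5 closing tallies are set aside. All libraries are from AGS, an established line of human gastric adenocarcinoma listed as wild type and grown in Ham's F12 medium with fetal calf serum. PI103 was given at 0.7 µM and oxozeaenol at 0.5 µM, each for 24 h, so the concentrations differ and each agent has only 1 of them. The 4 libraries of a treatment are biological replicates per the series text, and a batch field in the labels repeats their number. Beside these stand 4 control libraries of cells given no inhibitor, for which the labels do not say whether vehicle was added, and 4 libraries of cells given both agents at 50% of their single concentrations. The other 8 libraries, from cells given the MEK inhibitor PD0325901 at 0.035 µM alone or with PI103 at 50% of each, entered the fit and no comparison. The treatment field of PI103 replicates 2 to 4 counts the compound's name upward, so groups were taken from the titles.

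As background, class I PI3 kinases carry signals from growth factor receptors to the kinase AKT, which holds FOXO transcription factors out of the nucleus, and to mTOR complex 1, which promotes the synthesis of protein, nucleotides and lipids. Translation of ATF4, the transcription factor behind the amino acid response, is raised both by mTOR complex 1 and by stress kinases that phosphorylate eIF2, and its targets make, import and charge amino acids. TAK1, encoded by MAP3K7, is activated below cytokine, Toll-like and TGF-beta family receptors and passes the signal to the IκB kinases of the NF-κB pathway and to the kinases above JNK and p38. The MEK-ERK cascade is read from genes such as DUSP6, ETV4 and CCND1, and whether either agent acts on that cascade directly was not tested. The series title places the data in a study of metabolic change under such inhibitors, and the comparison asks which genes and pathways set the 2 single treatments apart.

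The PI103 libraries held 57196637 to 65141500 counts in genes, the oxozeaenol libraries 38057638 to 73993581 and the control libraries 56249866 to 84226380. In a principal component analysis of the 12 libraries of these groups, the first component held 42.7% of the variance and the second 30.7%, on which the PI103 libraries lay at 38.4 to 44.2 and the oxozeaenol libraries at -37.4 to -25.2. Oxozeaenol replicate 2 detected the most genes (18263, against 15645 to 16507 in the other 7) and oxozeaenol replicate 4 lay farthest from its group on the first component (51.4 against 23.9 to 32.0) and had 8.57% of its reads in no gene. Results that change by over 1.5 times or lose their call without both, a setting chosen after seeing the data, are given with that value. For IL8, SPRED1, NR1H2, RPL27, TAP2 and SNAI1 it is the upper end of the range of adjusted p given. The summed level of 6 epithelial markers was 5950 to 6810 CPM, the counts scaled to a library of 1000000, with PI103 and 4620 to 6050 CPM with oxozeaenol, so the markers of the labelled cell type were present in every library. The 5 leukocyte markers other than LYZ summed to at most 1.42 CPM, nearly all of it CD68, with CD3E at 0 counts in all 8 libraries, and the 4 endothelial markers summed to at most 0.452 CPM. The 6 fibroblast markers summed to 32.3 to 34.4 CPM with PI103 and 8.18 to 10.0 CPM with oxozeaenol, nearly all of it COL1A1, while COL1A2 and DCN, which define fibroblasts as well, had at most 1 count in any library.

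Of 23368 genes in the table, 3199 had no count in any library, 6222 were below the filter on low counts and 13947 were tested. Expression differed between PI103 and oxozeaenol at an adjusted p under 0.05 for 6014 genes, 43.1% of those tested. Of these, 2876 (20.6%) were higher with PI103 and 3138 (22.5%) were lower. Counts given for gene lists below are to be read against these shares of all genes tested. All adjusted p-values of genes come from the quasi-likelihood test of edgeR, adjusted by the Benjamini-Hochberg method over all genes of a comparison, with 4 libraries in each group, and "higher", "lower", "rose" and "fell" below mean with PI103 relative to oxozeaenol unless another pair is named. A gene that is never given a value below is listed only to complete a count, and was chosen for that after its values were seen. Most differences were small, since the median size among called genes was 0.52 on the log2 scale. Under a test that requires a change of more than 1 on the log2 scale, 413 genes (2.96%) remained, 186 higher and 227 lower. The lowest PI103 library lay above the highest oxozeaenol library for 2664 genes (19.1%) and the reverse held for 2561 (18.4%), and 4778 of the 6014 called genes were separated in this way.

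**Figure D1:**
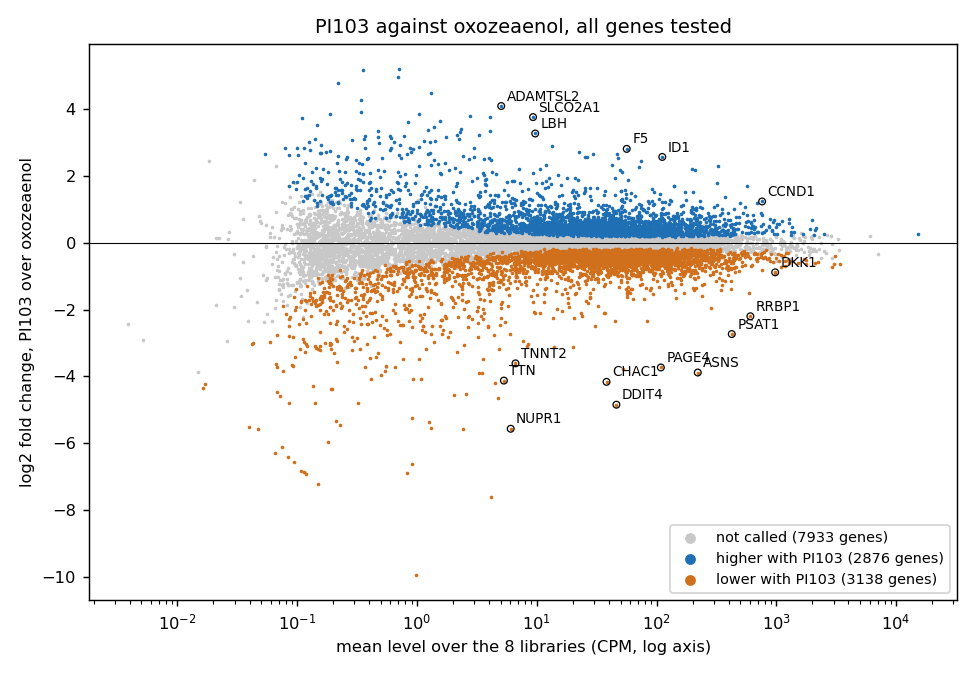
Log2 fold change of PI103 against oxozeaenol (vertical axis) for the 13947 genes tested, by mean level over the 8 libraries (horizontal axis, CPM on a log scale). Genes called at an adjusted p under 0.05 are coloured, and NUPR1, DDIT4, CHAC1 and ASNS of the amino acid response are the lowest named points apart from TTN.

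Against control cells PI103 changed 7162 genes (51.4%, with 3654 higher and 3508 lower) and oxozeaenol 7232 (51.9%, with 3590 higher and 3642 lower). Both sets of values share the same 4 control libraries, so they are given side by side below for each gene and are not compared as sets. In cells given both agents at 50% of each concentration, the mean level lay between those of the single agents for 8100 of all tested genes (58.1%). It did so for 177 of the 186 genes higher by more than 1 (95.2%) and for 211 of the 227 lower by more than 1 (93%). These genes were picked for a wide gap between the single agents, into which another mean falls more easily. Their shares therefore cannot be set against that of all genes.

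The 12 largest falls among well-expressed genes whose groups did not overlap were NUPR1, DDIT4, CHAC1, TTN, ASNS, SLC7A11, PAGE4, TNNT2, SLC6A9, CTH, ASS1 and CCDC141, and 7 of them are targets of ATF4. NUPR1, a small stress-induced chromatin protein (chr16:28532708-28539174, minus strand in GENCODE on GRCh38), stood at 0.338, 0.225, 0.206 and 0.226 CPM in PI103 replicates 1 to 4 and at 10.6, 22.1, 7.24 and 7.52 CPM in the oxozeaenol replicates. It was 47.3-fold lower (log2 fold change -5.56, SE 0.581, adjusted p 1.23e-07). DDIT4, an inhibitor of mTOR complex 1 that is itself induced by stress (chr10:72273920-72276036, plus strand), was measured at 2.63, 3.99, 2.64 and 3.20 CPM with PI103 against 109, 173, 45.8 and 29.2 CPM with oxozeaenol. The oxozeaenol values spread widely, and the absence of overlap was required by the rule that named these 12 genes. DDIT4 was 28.7-fold lower (log2 fold change -4.85, SE 0.746, adjusted p 3.54e-05). Untreated cells held 584 to 792 CPM of DDIT4, above all 8 treated libraries.

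A second set among these 12 was raised by oxozeaenol over control cells. PAGE4, a cancer/testis antigen, stood at 146, 167, 182 and 313 CPM with oxozeaenol, 13.3, 11.8, 13.5 and 22.2 CPM with PI103 and 4.45 to 9.07 CPM in control, and was 13.3-fold lower (log2 fold change -3.73, SE 0.275, adjusted p 2.74e-10). TNNT2, cardiac troponin T, was 12.2-fold lower (log2 fold change -3.61, SE 0.230, adjusted p 8.71e-12), with 9.82 to 14.7 CPM in the oxozeaenol libraries against 0.840 to 1.20 CPM in the PI103 libraries and 0.146 to 0.433 CPM in control. Titin (TTN, chr2:178525989-178830802, minus strand) was 17.4-fold lower (adjusted p 3.00e-09), with 7.88, 8.25, 6.67 and 17.4 CPM against 0.461, 0.572, 0.411 and 0.856 CPM, the highest value being that of oxozeaenol replicate 4. Its neighbour CCDC141 (chr2:178829757-179050086, minus strand), whose exons overlap those of TTN by 0.9% of their length on the same strand, was 8.15-fold lower (adjusted p 5.70e-14). Against control, oxozeaenol raised all of them (log2 fold changes 4.81 for PAGE4, 5.42 for TNNT2, 6.15 for TTN and 2.65 for CCDC141). PI103 raised the first of these genes by 1.08, TNNT2 by 1.81 and TTN by 2.03, while CCDC141 fell slightly (-0.38, adjusted p 0.0349). Of the 12 sarcomere genes tested among 19 listed, 4 were lower with PI103 (TTN, TNNT2, TNNC1 and DES) and 2 were higher (TPM1 and TNNT1). TNNC1, the calcium-binding troponin, was 5.03-fold lower (adjusted p 3.72e-09). The list's median log2 fold change was -0.34, against -0.02 over all genes tested.

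The 12 largest rises were ADAMTSL2, SLCO2A1, LBH, PRR9, F5, CACNG6, BMF, ETV4, ID1, EMP1, CST4 and TLR4. ADAMTSL2, a secreted glycoprotein of the extracellular matrix (chr9:133532164-133575519, plus strand), stood at 10.1, 8.22, 9.67 and 10.1 CPM with PI103 and 0.626, 0.589, 0.653 and 0.388 CPM with oxozeaenol and was 17.0-fold higher (log2 fold change 4.09, SE 0.244, adjusted p 1.56e-12). SLCO2A1, a prostaglandin transporter, was measured at 19.0, 17.5, 17.5 and 15.7 CPM and 1.58, 2.48, 0.596 and 0.229 CPM, or 13.5-fold higher (adjusted p 9.26e-07). The PI103 libraries of SLCO2A1 overlapped the control range of 17.1 to 22.9 CPM, and the oxozeaenol libraries lay far below it. F5, coagulation factor V, was 6.98-fold higher (log2 fold change 2.80, SE 0.198, adjusted p 1.41e-10), with PI103 above and oxozeaenol below the control libraries (89.9 to 115, 11.5 to 17.6 and 35.3 to 40.7 CPM). TLR4, the receptor for bacterial lipopolysaccharide, was 5.83-fold higher (adjusted p 3.33e-07), and again PI103 (77.5 to 89.3 CPM) lay above control (40.5 to 53.8 CPM) and oxozeaenol (9.44 to 16.3 CPM) below it. The same order, PI103 above control and oxozeaenol below, was called in both directions for 10 of the 12 genes, all but SLCO2A1 and ETV4. LBH, a transcriptional cofactor, was 9.61-fold higher (adjusted p 8.01e-14), CACNG6, a calcium channel subunit, 6.52-fold higher, EMP1, an epithelial membrane protein, 5.90-fold higher, CST4, a salivary cystatin, 5.90-fold higher and PRR9 7.45-fold higher.

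The amino acid response governed by ATF4 showed the largest median difference of the 35 gene lists examined. Of 43 listed targets 41 were tested, and 33 were lower with PI103 and 2 higher, NDRG1 and CPS1. The number higher was 1 without PI103 replicate 1 or 3, oxozeaenol replicate 3 or 4, or oxozeaenol replicates 2 and 4 together. The share lower was 80.5%, against 22.5% of all genes tested. The median log2 fold change was -1.47 over the list and -0.02 over all genes tested. The median against control was -2.80 with PI103 and -1.33 with oxozeaenol. Averaged over the 41 genes as log2(CPM + 0.5), the PI103 libraries stood -2.90 to -2.76 from the control mean and the oxozeaenol libraries -1.80 to -0.93. The 8 treated libraries were all below the 4 controls (-0.15 to 0.16). Some members had a PI103 mean under 0.5 CPM, such as NUPR1 (0.249), TRIB3 (0.0728) and FGF21 (0.0120). For genes that low the added 0.5 narrows both the distance from control and the spread. Oxozeaenol replicate 2 was the highest of its group and replicate 4 the lowest.

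Sequences are shown for the listed targets whose promoter holds the 8-base core of the composite element that C/EBP and ATF factors bind, since ATF4 is known to act through it. The letters TGATGNAA were searched on both strands (TTNCATCA on the other), in RefSeq promoters of GRCh38.p14 from 250 bases before to 50 after the start. A promoter was at hand for 31 of the 41 tested targets, and 6 of them (19.4%) held a match, against 187 of 10631 tested genes (1.76%) and 1270 of all 35116 promoters (3.62%). Of the 628 called genes with a log2 fold change below -1, whether or not they passed the test of a minimum change, 440 had a promoter and 22 of these (5.0%) held one. Of the 487 called genes above 1 it was 7 of 341 (2.05%). The targets were listed because ATF4 is known to act on them. A share above that of all genes was thus likely beforehand and is no separate evidence from these data. FGF21, CHAC1, ASNS and SLC3A2 of that list are also among the called genes below -1, so those 2 shares are not independent. Each line gives up to 30 bases around a match, 5′ to 3′ on the gene's own strand, with the match in capitals.
FGF21 (chr19:48755459-48755488): aaacaccaggaTTGCATCAgggaggaggag
CHAC1 (chr15:40953251-40953280): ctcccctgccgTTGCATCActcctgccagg
ASNS (chr7:97872458-97872487): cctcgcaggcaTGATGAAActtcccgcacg
SLC3A2 (chr11:62881725-62881748): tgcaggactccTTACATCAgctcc
SLC7A1 (chr13:29595663-29595692): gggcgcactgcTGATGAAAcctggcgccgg
ATF3 (chr1:212565205-212565234): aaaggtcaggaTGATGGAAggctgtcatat
By the starts of the RefSeq promoter table the match lay 54, 209, 68 and 191 bases before the start in FGF21, CHAC1, ASNS and ATF3, and 37 and 7 bases after it in SLC3A2 and SLC7A1. The annotation used for gene positions here, GENCODE 29, starts CHAC1 and ASNS farther upstream, so that both matches lie inside those genes as annotated there. FGF21, CHAC1, ASNS, SLC3A2 and SLC7A1 were lower with PI103, while ATF3 was not called (log2 fold change -0.04, adjusted p 0.886). FGF21, SLC7A1 and ATF3 are named because their promoters matched. The letters are a description of these windows, and the absence of a match in the other promoters says nothing about ATF4 there.

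Among the transcription factors of the response, ATF4 itself stood at 357, 367, 321 and 339.9 CPM with PI103, 609, 622, 546 and 528 CPM with oxozeaenol and 726 to 868 CPM in control, and was 1.67-fold lower (log2 fold change -0.74, SE 0.101, adjusted p 1.88e-06). CEBPG, its dimer partner, was 1.76-fold lower (adjusted p 5.91e-07). Of the 7 factors 6 were lower, NUPR1 by the most, and only ATF3 was not called. The stress effectors fell furthest, with 11 of 13 tested lower and a median of -3.11. CHAC1, an enzyme that degrades glutathione, was measured at 3.58, 6.14, 3.15 and 3.34 CPM with PI103 and 94.4, 112, 44.8 and 38.6 CPM with oxozeaenol and was 17.9-fold lower (log2 fold change -4.16, SE 0.514, adjusted p 2.25e-06). CTH, cystathionine gamma-lyase, stood at 2.25 to 3.38 CPM against 21.7, 42.8, 18.4 and 17.3 CPM and was 8.61-fold lower (adjusted p 4.20e-07), with oxozeaenol replicate 2 apart from the rest of its group. TRIB3, a pseudokinase that restrains AKT and ATF4, had 0.108, 0.0867, 0 and 0.0969 CPM with PI103, 0.800, 2.68, 0.284 and 0.282 CPM with oxozeaenol and 23.5 to 41.5 CPM in control (log2 fold change -3.85, SE 0.851, adjusted p 9.81e-04). Its PI103 libraries held 0 to 7 counts, close to the limit of detection, and its oxozeaenol libraries 10 to 196. VEGFA, the vascular endothelial growth factor, was 3.11-fold lower (adjusted p 1.32e-08). NDRG1, a growth-arrest gene on the same list, went the other way and was 2.68-fold higher (adjusted p 1.43e-08). The genes INHBE and FGF21, which encode secreted proteins, are named here after their values were seen. INHBE had 1 to 3 counts in each PI103 library and 67 to 1687 in the oxozeaenol libraries, or 6.14, 23.1, 1.90 and 1.94 CPM. For FGF21 the counts were 0 to 2 and 11 to 337.

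**Figure D2:**
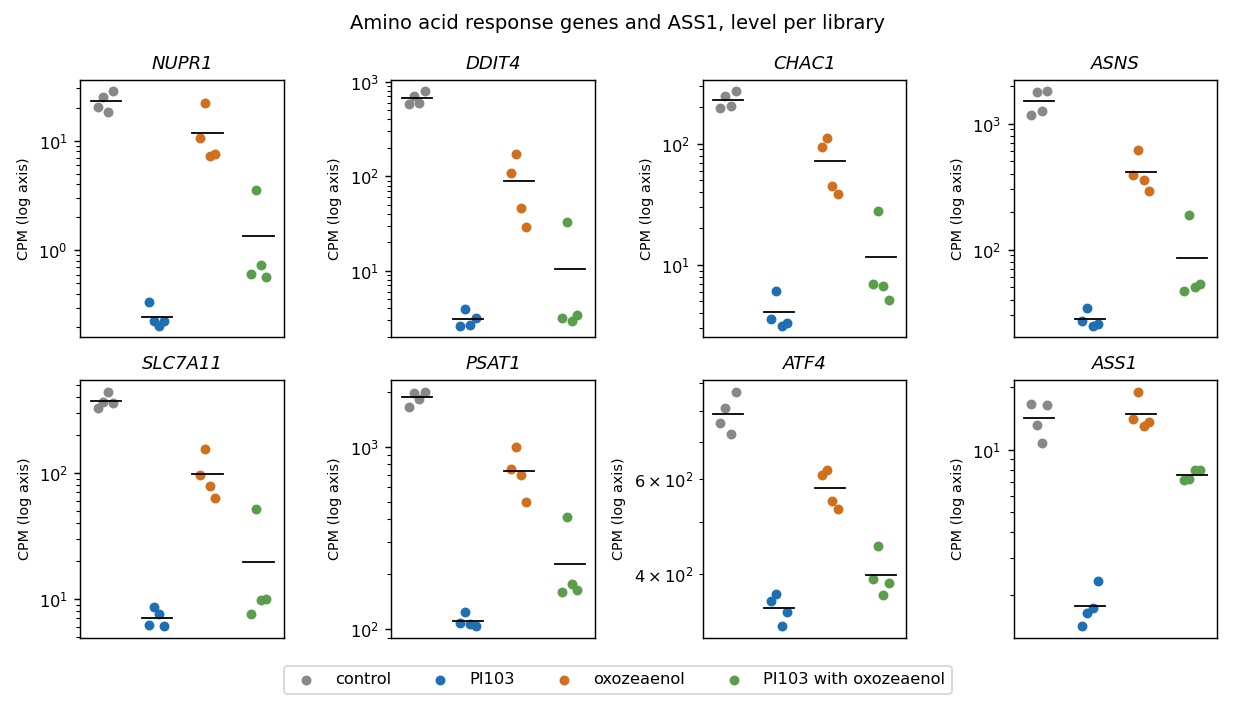
Level of 8 genes, those of the amino acid response and ASS1 from outside that list, in each library (points, CPM on a log scale). Groups are control, PI103, oxozeaenol and their combination, with the group mean as a bar. In each panel all 4 PI103 libraries lie below all 4 oxozeaenol libraries, as in ASNS with 24.9 to 34.1 against 290.1 to 619 CPM. The naming rule required this of NUPR1, DDIT4, CHAC1, ASNS, SLC7A11 and ASS1.

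The enzymes that make amino acids were lower with PI103 in 8 of 12 cases and higher in 1, CPS1. ASNS, asparagine synthetase, is a standard readout of ATF4 (chr7:97852118-97872542, minus strand). It stood at 27.3, 34.1, 24.9 and 25.8 CPM with PI103, 391, 619, 354 and 290.1 CPM with oxozeaenol and 1162, 1767, 1269 and 1798 CPM in control, so the 3 groups did not overlap. With PI103 it was 14.8-fold lower than with oxozeaenol (log2 fold change -3.88, SE 0.398, adjusted p 1.04e-07), and against control the log2 fold change of ASNS was -5.74 with PI103 and -1.86 with oxozeaenol. PSAT1 and PSPH, which complete serine synthesis, were 6.65-fold lower and 5.09-fold lower. PSAT1 was measured at 109, 124, 107 and 104 CPM with PI103 and 759, 996, 697 and 499 CPM with oxozeaenol. GPT2, the mitochondrial alanine transaminase, was 3.23-fold lower (adjusted p 2.55e-10), and MTHFD2, a mitochondrial folate enzyme, 3.83-fold lower (adjusted p 1.39e-08). In GENCODE 27.2% of the exon length of MTHFD2 lies opposite SLC4A5, so its count is less certain. ASS1, argininosuccinate synthase, is outside the list and behaved differently, since oxozeaenol left it overlapping the control range (14.1, 19.0, 13.1 and 13.5 CPM against 16.7, 13.2, 10.8 and 16.4 CPM) while PI103 held it at 1.41, 1.63, 1.73 and 2.33 CPM, 8.43-fold lower (adjusted p 9.87e-12).

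Amino acid transporters were lower in 8 of 9 tested cases and higher in none. SLC7A11, which imports cystine in exchange for glutamate, stood at 6.17, 8.65, 7.54 and 6.09 CPM with PI103 and 95.8, 153, 78.3 and 62.7 CPM with oxozeaenol and was 13.7-fold lower (log2 fold change -3.78, SE 0.503, adjusted p 5.73e-06). SLC6A9, a glycine transporter, was 8.74-fold lower (adjusted p 4.19e-10). SLC3A2, the heavy chain shared by several transporters, was 2.37-fold lower (adjusted p 1.05e-09), and SLC1A4, which carries alanine, serine and cysteine, 3.48-fold lower (adjusted p 4.15e-08). Control cells had more of each than either treatment (328 to 439.8 CPM for SLC7A11, 514 to 601 CPM for SLC3A2).

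Synthetases that charge tRNAs split by compartment. Of 20 cytosolic enzymes 11 were lower and 2 higher (DARS and QARS) with a median of -0.50, whereas of 17 mitochondrial ones 4 were lower (CARS2, MARS2, NARS2 and WARS2) and 3 higher with a median of 0.03. The shares lower were 55% and 23.5%, against 22.5% of all genes. The shares higher were 10% and 17.6%, against 20.6%. The difference between the 2 compartments was not tested, and the 5 higher in all were 3 without PI103 replicate 3 or without oxozeaenol replicates 2 and 4. CARS, the cysteinyl enzyme, was 2.67-fold lower (adjusted p 2.71e-07), YARS, the tyrosyl enzyme, 2.64-fold lower (adjusted p 9.01e-08) and WARS, the tryptophanyl enzyme, 2.09-fold lower (adjusted p 4.71e-08). In the mitochondrial group TARS2 was 1.49-fold higher (adjusted p 5.43e-06), while CARS2 was 1.30-fold lower (adjusted p 0.00119). Of 20 genes of serine, glycine and one-carbon metabolism 8 were lower and none higher, and PSAT1, PSPH and MTHFD2 of the ATF4 list were among them. The median of that list was -0.35.

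Readouts of the MEK-ERK cascade were higher with PI103, most of all its transcription factors. Of 59 listed genes 52 were tested, 26 higher (50% against 20.6% of all genes) and 7 lower, and the median was 0.56. Both agents lowered the list relative to control, with medians of -0.79 with PI103 and -1.21 with oxozeaenol. Of 22 transcription factors tested 14 were higher and none lower. ETV4, an ETS factor induced by ERK, was measured at 83.8, 81.3, 75.1 and 80.0 CPM with PI103, 17.7, 15.8, 13.0 and 4.82 CPM with oxozeaenol and 71.3, 70.0, 56.3 and 74.3 CPM in control. It was 6.23-fold higher (log2 fold change 2.64, SE 0.348, adjusted p 2.84e-06) and lowest in oxozeaenol replicate 4. Its relative ETV1 was 6.40-fold higher (adjusted p 1.08e-07), ETS1 was 3.82-fold higher (adjusted p 2.20e-09), and KLF4, an epithelial zinc-finger factor, was 2.46-fold higher (adjusted p 1.68e-07). ETV5, the third member of the ETV4 family, did not differ detectably, with 50.3, 51.3, 50.2 and 46.0 CPM against 63.7, 58.3, 42.1 and 35.8 CPM (log2 fold change -0.02, SE 0.435, adjusted p 0.979). EGR1, an immediate-early factor, stood at 22.7, 11.95, 8.37 and 10.7 CPM and 11.6, 10.4, 3.49 and 1.92 CPM and the groups overlapped (log2 fold change 0.94, adjusted p 0.0887). Without oxozeaenol replicate 1 the adjusted p of EGR1 was 0.0347, and over 16 alternatives it ran from 0.0347 to 0.327. Both agents held EGR1 far under the control level of 157 to 249 CPM.

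Feedback inhibitors of the cascade were mixed. DUSP6, the phosphatase specific for ERK, was measured at 57.7, 44.5, 47.4 and 46.6 CPM with PI103 and 26.5, 33.4, 17.3 and 12.8 CPM with oxozeaenol, both below control (115 to 148 CPM). It was 2.17-fold higher (log2 fold change 1.12, SE 0.271, adjusted p 0.00205). DUSP4 was 2.10-fold higher (adjusted p 2.32e-05) and DUSP10, which acts on JNK and p38, 1.55-fold higher (adjusted p 0.00151), while DUSP14 was 1.37-fold lower (adjusted p 2.49e-04) and DUSP7 was also lower. Of the 6 Sprouty and Spred genes SPRED1 was higher (0.73, adjusted p 0.0196) and SPRED3 lower (-2.15), the latter named after its values were seen. The call of SPRED1 was lost without PI103 replicate 3 (adjusted p 0.0589) or oxozeaenol replicate 4 (0.0654), in a range of 0.00321 to 0.0980 over 16 alternatives. SPRY4 was not called, at 19.4, 17.8, 17.2 and 18.0 CPM with PI103 and 16.9, 12.4, 11.9 and 11.4 CPM with oxozeaenol (log2 fold change 0.46, adjusted p 0.147). Fitted on the 8 libraries alone its adjusted p was 0.00343, the lowest in a range up to 0.466.

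Effectors of growth and adhesion were higher in 8 of 16 cases and lower in 4 (PHLDA1, HBEGF, TGFA and LIF). CCND1, cyclin D1, stood at 1162, 1049.5, 1075 and 979 CPM with PI103, 529.7, 455, 445 and 386 CPM with oxozeaenol and 978, 859, 877 and 851 CPM in control and was 2.35-fold higher (log2 fold change 1.23, SE 0.158, adjusted p 8.29e-07). In GENCODE 10.3% of its exon length lies opposite LTO1. ITGA2, the integrin subunit that binds collagen, was 3.24-fold higher (adjusted p 1.70e-07) and EPHA4, an ephrin receptor, 2.72-fold higher (adjusted p 1.41e-10). MYC, a growth-promoting factor fed by several of these pathways, was 133 to 153 CPM with PI103 and 99.0 to 132 CPM with oxozeaenol, without overlap but not called (log2 fold change 0.27, adjusted p 0.0612). With the replicate number as a block the adjusted p of MYC was 0.0345 and without oxozeaenol replicate 1 it was 0.0420, in a range of 0.0281 to 0.402.

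**Figure D3:**
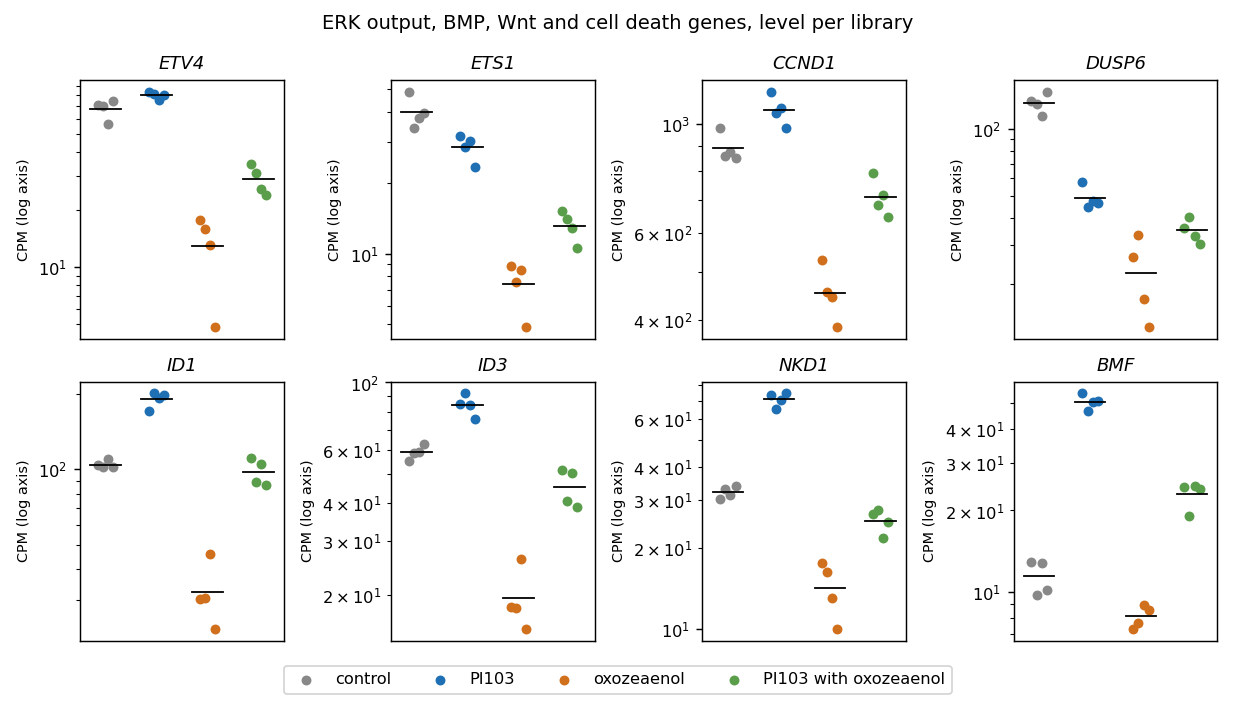
Level of ETV4, ETS1, CCND1, DUSP6, ID1, ID3, NKD1 and BMF in each library (points, CPM on a log scale) for control, PI103, oxozeaenol and their combination, with the group mean as a bar. PI103 lies above oxozeaenol without overlap in each panel, which the naming rule required of ETV4, ID1 and BMF. PI103 lies below control for ETS1 and DUSP6 and above it for the other 6.

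Genes below TAK1 and NF-κB showed no common direction. Of 49 listed genes 36 were tested, 14 higher (38.9% against 20.6% of all genes) and 8 lower (22.2% against 22.5%), with a median of 0.20. Without oxozeaenol replicates 2 and 4 together, 8 were higher and 6 lower. Chemokines and cytokines were mostly lower with PI103, 5 of 8 tested, and only IL8 was higher. CXCL10, which attracts T cells, was raised by oxozeaenol (3.03, 3.00, 3.55 and 3.49 CPM against 0.484 to 0.843 CPM in control) and stood at 0.507, 0.295, 0.771 and 0.485 CPM with PI103, 6.31-fold lower (log2 fold change -2.66, adjusted p 5.08e-10). CXCL3 was 2.31-fold lower (adjusted p 1.61e-04) and CSF1, a macrophage growth factor, 1.56-fold lower (adjusted p 2.17e-04), and CXCL2 and CCL5 were also lower. IL8 (CXCL8), the neutrophil chemokine, was nearly lost with both agents, at 0.323, 0.208, 0.309 and 0.372 CPM with PI103 and 0.0696, 0.164, 0.199 and 0.0353 CPM with oxozeaenol against 4.97 to 14.7 CPM in control. Its difference between the agents (log2 fold change 1.42, SE 0.542, adjusted p 0.0373) rests on 12 to 23 counts against 2 to 12. The call was lost without any 1 of PI103 replicates 1, 3 and 4 (0.0695, 0.0639 and 0.0824) or of oxozeaenol replicates 1 and 4 (0.0947 and 0.125), in a range of 0.00821 to 0.181 over 16 alternatives.

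Of the NF-κB subunits 2 of 5 were higher with PI103 and none lower, and of the feedback inhibitors 4 of 10 were higher and 1 lower. RELA was 1.28-fold higher (adjusted p 0.00282) and REL 1.68-fold higher (adjusted p 0.00293). NFKB2 was not called (0.24, adjusted p 0.0903), with an adjusted p of 0.0265 when the replicate number was a block and a range up to 0.305. NFKBIA, the inhibitor that NF-κB itself induces, was 40.03 to 46.5 CPM with PI103 and 35.0 to 38.1 CPM with oxozeaenol, or 1.19-fold higher (adjusted p 0.0108). TNFAIP3 (A20), a second feedback inhibitor, was 1.64-fold higher (adjusted p 0.00738) and TNIP1, its partner, 1.41-fold higher (adjusted p 7.42e-05), while NFKBIZ was 1.76-fold lower (adjusted p 0.00288). Without oxozeaenol replicates 2 and 4 together RELA, NFKBIA and NFKBIZ were not called (adjusted p 0.0878, 0.0933 and 0.0995), each the highest of the 16 alternatives, the lowest being 3.30e-04, 0.00524 and 4.25e-04. In the survival and adhesion group PTGS2, the inducible cyclooxygenase, was 4.29-fold lower (log2 fold change -2.10, SE 0.158, adjusted p 2.02e-10) and ICAM1, a leukocyte adhesion molecule, 1.84-fold lower (adjusted p 7.25e-09). In the other direction TNFAIP8 was 2.93-fold higher (adjusted p 4.34e-10).

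Growth factor receptors and FOXO targets are known to rise when PI3 kinase is blocked. Of 46 tested genes of this list 25 were higher (54.3%) and 7 lower, with a median of 0.41. Receptors and adaptors were higher in 7 of 9 cases and lower in none. Averaged over these 9, the PI103 libraries stood 0.45 to 0.50 above the control mean in log2(CPM + 0.5) and the oxozeaenol libraries at -0.23 to 0.03. FOXO factors and targets were higher in 14 of 25 cases and lower in 4, and here the PI103 libraries lay near control (-0.12 to 0.01 on the same scale) and the oxozeaenol libraries below it (-0.58 to -0.38). Against control PI103 raised 12 of these 25 and lowered 10, with a median of 0.20, while oxozeaenol raised 9 and lowered 14, with a median of -0.38. INSR, the insulin receptor, stood at 28.9, 27.6, 28.6 and 28.98 CPM with PI103, 18.5, 15.6, 16.7 and 20.1 CPM with oxozeaenol and 15.7, 14.1, 16.3 and 13.6 CPM in control and was 1.61-fold higher (log2 fold change 0.68, SE 0.111, adjusted p 2.17e-05). IGF1R was 2.17-fold higher (adjusted p 3.78e-08), ERBB3 2.00-fold higher (adjusted p 2.04e-09) and IRS1, the adaptor of the insulin receptor, 1.98-fold higher (adjusted p 4.13e-07). Against control PI103 raised ERBB3 by 1.12 and IGF1R by 0.94 while with oxozeaenol neither was called (0.12 and -0.17). IRS1 fell with oxozeaenol (-0.81, against 0.18 with PI103).

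Of 25 FOXO factors and targets 14 were higher and 4 lower (PCK2, PMAIP1, GADD45A and CAT). FOXO1 was measured at 14.4 to 15.9 CPM with PI103, 4.97 to 6.99 CPM with oxozeaenol and 8.88 to 11.3 CPM in control and was 2.68-fold higher (log2 fold change 1.42, SE 0.109, adjusted p 1.58e-10). GADD45B, a growth-arrest gene, was 2.83-fold higher (adjusted p 1.02e-09), GABARAPL1, an autophagy protein, 1.93-fold higher (adjusted p 7.11e-10) and RBL2, a relative of the retinoblastoma protein, 1.61-fold higher (adjusted p 3.64e-06). Inhibitors of the pathway were higher in 4 of 12 cases (33.3% against 20.6% of all genes) and lower in 3 (25% against 22.5%). The lower ones were DDIT4, TRIB2 and PHLPP2, and the higher ones PHLPP1, TSC1, TRIB1 and TSC2. TRIB2, a pseudokinase, was 1.40-fold lower (adjusted p 0.00283) and PHLPP2, an AKT phosphatase, 1.40-fold lower (adjusted p 0.00361). PIK3IP1, an inhibitor of PI3 kinase, was 0.692, 0.520, 0.549 and 0.517 CPM against 0.261, 0.274, 0.482 and 0.194 CPM and was not called (log2 fold change 0.96, adjusted p 0.0737). Its adjusted p was 0.0391 with the replicate number as a block and 0.0428 without oxozeaenol replicate 3, in a range of 0.0245 to 0.382. Among the 39 tested kinases and partners 9 were higher (4 without oxozeaenol replicates 2 and 4) and 9 lower, with a median of 0.00. That is 23.1% each way, near the 20.6% and 22.5% of all genes. PIK3CA, the catalytic subunit p110α, was 2.05-fold higher (adjusted p 2.31e-08), although 35.8% of its exon length lies opposite KCNMB3. EIF4EBP1, the translation repressor controlled by mTOR, was 2.90-fold lower (log2 fold change -1.54, SE 0.221, adjusted p 6.08e-06) and PIK3R3, a regulatory subunit, 2.63-fold lower (adjusted p 1.58e-05). On the TAK1 side TAB1 and IKBKB were 1.44-fold higher and 1.34-fold higher, and CHUK was 1.40-fold lower.

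Targets of TGF-beta and BMP were higher with PI103 in 14 of 17 tested cases (82.4% against 20.6%) and lower in 2 (TGFB3 and BMP2, 1 of them without oxozeaenol replicates 2 and 4). The median was 1.19, with 0.51 for PI103 and -0.67 for oxozeaenol against control. ID1, a BMP target that blocks helix-loop-helix factors (chr20:31605283-31606515, plus strand), was measured at 171, 201, 193 and 198 CPM with PI103, 30.4, 30.4, 45.7 and 23.0 CPM with oxozeaenol and 104, 102, 109.8 and 102 CPM in control. The 3 groups did not overlap, and ID1 was 5.91-fold higher with PI103 than with oxozeaenol (log2 fold change 2.56, SE 0.184, adjusted p 1.45e-10). ID3 was 4.34-fold higher (adjusted p 3.52e-12). SMAD7, an inhibitor that TGF-beta induces, stood at 36.1, 36.4, 37.5 and 36.3 CPM with PI103, overlapping the control range of 36.5 to 40.9 CPM, and at 13.6, 13.5, 13.8 and 11.04 CPM with oxozeaenol. It was 2.82-fold higher (adjusted p 1.79e-13) with PI103. COL1A1, the collagen chain that also serves as a fibroblast marker, was 3.79-fold higher (log2 fold change 1.92, SE 0.0921, adjusted p 4.10e-14), with 32.1 to 34.2 CPM against 7.93 to 9.63 CPM. Of the 7 tested markers of other cell types, 2 were higher (COL1A1 and PDGFRB) and 2 lower (VWF and LUM). All but COL1A1, CD68 and LYZ had at most 21 counts in any of the 8 libraries. The number lower was 1 without any 1 of PI103 replicates 1, 2 and 3 or oxozeaenol replicates 2 and 4. Without oxozeaenol replicates 2 and 4 together it was also 1. The number higher was 1 without PI103 replicate 3. In the fit on the 8 libraries, and with a filter of 1 CPM, none was called lower and 1 higher.

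Wnt targets were higher in 7 of 13 tested cases and lower in 2 (NKD2 and DKK1), with a median of 0.61. The number lower was 1 without oxozeaenol replicate 2, alone or together with replicate 4. NKD1, a feedback inhibitor of Wnt signalling, stood at 73.5, 65.6, 70.7 and 74.8 CPM with PI103, 17.5, 16.2, 13.1 and 10.0 CPM with oxozeaenol and 30.4, 32.9, 31.4 and 33.9 CPM in control and was 4.99-fold higher (log2 fold change 2.32, SE 0.138, adjusted p 1.56e-12). AXIN2, the most general Wnt target, was 1.99-fold higher (adjusted p 8.94e-10) and NOTUM, a secreted Wnt-inactivating enzyme, 2.35-fold higher (adjusted p 2.69e-08). Of 13 tested targets of YAP and TEAD 4 were higher (30.8% against 20.6% of all genes) and 3 lower (23.1% against 22.5%). CTGF, a matrix-associated growth factor, was 2.27-fold higher (adjusted p 5.01e-06), with a single PI103 library at 149 CPM above the rest, while F3, tissue factor, was 3.15-fold lower (log2 fold change -1.66, SE 0.0794, adjusted p 4.10e-14) and AJUBA, a LIM protein, 1.76-fold lower (adjusted p 6.11e-07). AXL, ANKRD1 and CRIM1 were the other higher ones and ARHGEF17 the other lower one.

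Cholesterol synthesis was lower with PI103 than with oxozeaenol across almost the whole pathway. Of 20 synthesis genes 16 were lower and 1, PMVK, higher, and the median was -0.68. Both agents raised this group over control, by a median of 0.35 with PI103 and 0.90 with oxozeaenol. HMGCS1, the enzyme before the rate-limiting step, stood at 368, 454, 436 and 429.9 CPM with PI103, 614, 652, 755 and 636 CPM with oxozeaenol and 336, 219, 399 and 206 CPM in control and was 1.57-fold lower (log2 fold change -0.65, SE 0.180, adjusted p 0.00518). ACAT2, which opens the pathway, was 3.00-fold lower (adjusted p 4.12e-10), TM7SF2, a sterol reductase, 2.72-fold lower (adjusted p 5.11e-10) and DHCR7, the last reductase, 1.74-fold lower (adjusted p 1.24e-07). Uptake and control genes were lower in 6 of 11 cases and higher in 2. SREBF1, the factor that drives lipid synthesis, fell by 0.58 on the log2 scale (adjusted p 5.64e-05). ABCA1, which exports cholesterol, was 4.18-fold lower (log2 fold change -2.06, SE 0.262, adjusted p 1.06e-06). Of the 34 tested genes of synthesis, uptake and efflux, 4 were higher (2 without oxozeaenol replicates 2 and 4) and 23 lower. NR1H2, a sterol receptor, was among the higher genes, a call lost without PI103 replicate 2 or oxozeaenol replicate 4 (adjusted p 0.0645 and 0.0889, in a range of 0.00630 to 0.171).

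Of 20 tested genes of fatty acid synthesis, desaturation and activation 10 were lower and 2 higher (ACSL5 and GPAM), with a median of -0.26. ACSS2, which makes acetyl-CoA from acetate, stood at 57.5, 67.7, 62.1 and 64.0 CPM with PI103 and 125, 145, 146 and 143 CPM with oxozeaenol and was 2.23-fold lower (log2 fold change -1.15, SE 0.121, adjusted p 3.41e-08). PI103 left it overlapping the control range of 57.5 to 68.1 CPM. ACSL1, a fatty acyl-CoA synthetase, was 1.96-fold lower (adjusted p 3.01e-06) and FADS3, a desaturase-like protein, 1.89-fold lower (adjusted p 8.20e-07).

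In central carbon metabolism the direction differed by step. Glucose genes were called higher in 9 of 30 tested cases and lower in 9, with a median of -0.06. That is 30% each way, against 20.6% and 22.5% of all genes. PFKP, the platelet form of phosphofructokinase, was 1.96-fold higher (adjusted p 3.80e-07) and PFKFB3, which makes its activator, 1.71-fold higher (adjusted p 8.48e-07). ALDOC, an aldolase, moved most and was 4.78-fold lower (log2 fold change -2.26, SE 0.170, adjusted p 1.59e-10), with 4.07, 6.05, 3.87 and 4.77 CPM against 22.8, 23.5, 22.6 and 20.6 CPM and 9.24 to 11.1 CPM in control. The list of the tricarboxylic acid cycle was lower in 11 of 22 cases and higher in none (1 with the replicate number as a block). Its median was -0.23, and 1 gene remained lower when a change of more than 1 was required. The largest fall was that of IDH1, which is on the list although its enzyme is cytosolic. IDH1, the cytosolic isocitrate dehydrogenase, stood at 284, 315, 317 and 329 CPM with PI103, 770.0, 911, 966 and 862 CPM with oxozeaenol and 511, 593, 603 and 568 CPM in control and was 2.82-fold lower (log2 fold change -1.50, SE 0.111, adjusted p 9.13e-11), so that control lay between the agents without overlap. SUCLA2, a subunit of succinyl-CoA synthetase, was 1.48-fold lower (adjusted p 1.65e-05). PDK1, a kinase that holds pyruvate out of the cycle and a target of hypoxia-inducible factor, was 2.89-fold lower (log2 fold change -1.53, SE 0.0910, adjusted p 1.56e-12). Of 16 tested targets of that factor 8 were lower and 5 higher (NDRG1, SLC2A1, KDM3A, BNIP3L and MXI1), with a median of -0.29.

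Subunits of the respiratory chain were lower in 44 of 65 cases (67.7% against 22.5%) and higher in none. The differences were small, with a median of -0.41, and the count was 29 without oxozeaenol replicates 2 and 4. Averaged over the list, PI103 libraries stood at -0.25 to -0.01 from the control mean and oxozeaenol libraries at -0.02 to 0.44 on the log2 scale, so the groups overlapped in this average. Within each of the 4 replicate numbers the oxozeaenol library lay above the PI103 library (-0.02 against -0.22, 0.20 against -0.17, 0.44 against -0.25 and 0.33 against -0.01), and with the number as a block 50 genes were lower. UQCRC2, a core subunit of complex III, was measured at 192, 189, 184 and 199 CPM with PI103 and 284, 308, 374 and 308 CPM with oxozeaenol and was 1.67-fold lower (log2 fold change -0.74, SE 0.0933, adjusted p 5.98e-07). CYCS, cytochrome c, was 1.81-fold lower (adjusted p 1.02e-04), UQCRFS1, the iron-sulfur subunit of complex III, 1.33-fold lower (adjusted p 1.38e-04) and the complex I subunits NDUFA6, NDUFA9 and NDUFS1 1.56-fold lower, 1.55-fold lower and 1.31-fold lower. Exon length of the named subunits ran from 1416 bases in NDUFA6 to 12268 in NDUFS1, and that of the whole list was not examined. Among all genes, length moved with the comparison. Over 13214 genes with a known exon length, the median log2 fold change rose from -0.18 in the shortest of 5 equal groups to 0.07 in the longest, through -0.06, -0.03 and 0.03. The part of length in the result for the respiratory chain was not tested.

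**Figure D4:**
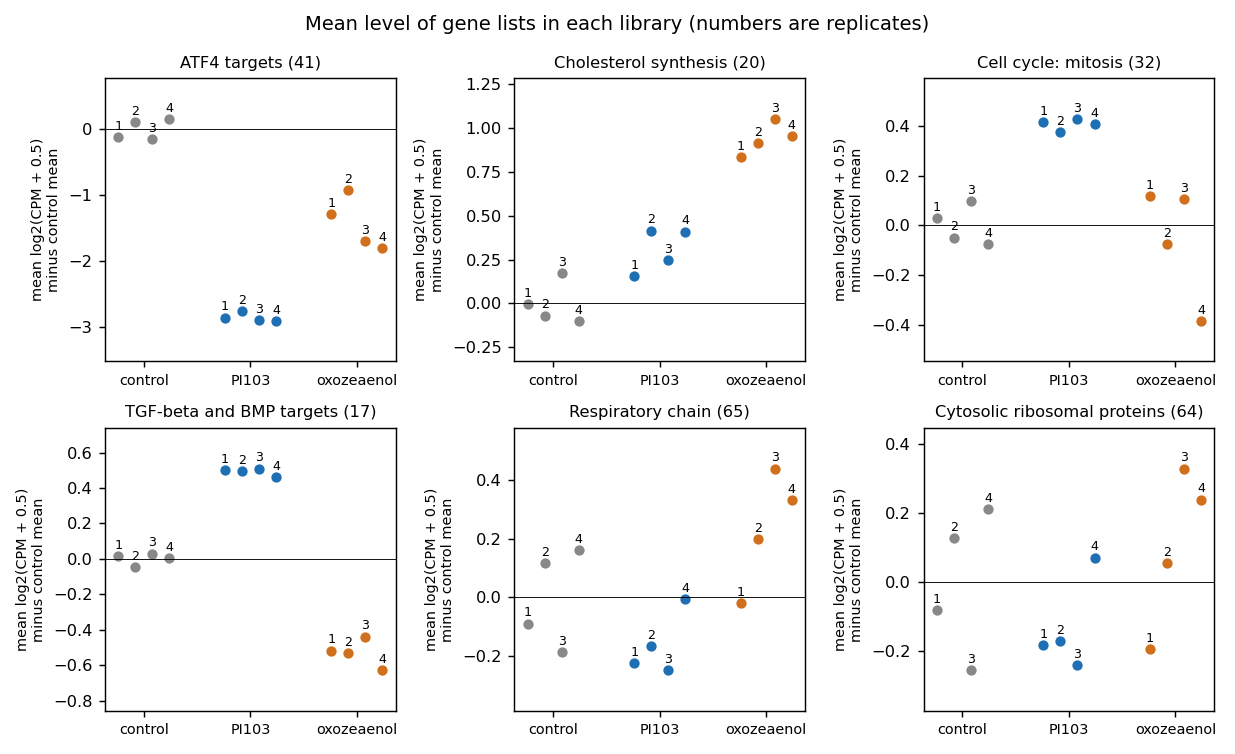
Mean level of 6 gene lists in each control, PI103 and oxozeaenol library, as the mean of log2(CPM + 0.5) over the list minus its mean in control. The agents are fully separated for ATF4 targets, cholesterol synthesis, mitosis and TGF-beta and BMP targets, and overlap for the respiratory chain and ribosomal proteins.

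Of 11 tested genes of polyamine synthesis 5 were lower (ODC1, OAT, ARG2, AMD1 and OAZ1) and 2 higher (SAT1 and SMOX). ODC1, the rate-limiting enzyme, stood at 208, 225, 195 and 188 CPM with PI103 and 409, 386, 379 and 387 CPM with oxozeaenol, the latter overlapping control (426, 374, 384 and 380.3 CPM), and was 1.91-fold lower (log2 fold change -0.94, SE 0.0880, adjusted p 5.43e-09). OAT, ornithine aminotransferase, was 2.15-fold lower (adjusted p 6.24e-08) and ARG2, an arginase whose exons lie opposite VTI1B over 37.4% of their length, 1.69-fold lower (adjusted p 6.11e-07). Nucleotide synthesis had 7 of 30 genes lower (11 with the replicate number as a block) and 4 higher (PFAS, IMPDH2, IMPDH1 and CTPS2). That is 23.3% lower, near the 22.5% of all genes, and 13.3% higher, against 20.6%. The number higher was 2 without PI103 replicate 1, PI103 replicate 4 or oxozeaenol replicate 2, 1 without PI103 replicate 2 or oxozeaenol replicate 4, and 0 without oxozeaenol replicates 2 and 4. HPRT1, which salvages purines, was 1.49-fold lower (adjusted p 8.15e-04) and CTPS, which makes CTP, 1.37-fold lower (adjusted p 0.00108).

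Of 46 genes of ribosome biogenesis 9 were lower (19.6% against 22.5% of all genes) and 3 higher (UBTF, GAR1 and HEATR1, 1 of them without oxozeaenol replicates 2 and 4). The median was -0.16, and both agents lay under control (medians -0.67 and -0.51). The number lower was 4 without oxozeaenol replicate 2 or replicate 3 and 15 without oxozeaenol replicate 4. PNO1, a processing factor of the small subunit, was 1.82-fold lower (adjusted p 3.44e-04), while UBTF, which activates RNA polymerase I, was 1.51-fold higher (adjusted p 1.15e-05). Of 64 cytosolic ribosomal proteins 14 were lower (21.9% against 22.5% of all genes) and 1, RPLP0, higher, and the median was -0.21. The number higher ran from 0 to 3 under the alternatives and was 0 without oxozeaenol replicates 2 and 4. The number lower was 28 with the replicate number as a block, 9 under upper quartile scaling, 32 without oxozeaenol replicate 1, 2 without oxozeaenol replicate 3 or replicate 4, 3 without PI103 replicate 1 or replicate 3, 4 without PI103 replicate 2, 23 without PI103 replicate 4 and 1 without oxozeaenol replicates 2 and 4. RPL27 stood at 726, 707, 718 and 1121 CPM against 864, 1185, 1606 and 1792 CPM (log2 fold change -0.74, adjusted p 0.0144, and 0.0613 without oxozeaenol replicate 4, in a range of 2.40e-04 to 0.0978). The groups overlapped, and PI103 replicate 4 lay inside the oxozeaenol range. Of 34 translation factors 11 were lower (32.4% against 22.5% of all genes) and 7 higher (20.6%, as over all genes). The number higher was 4 without PI103 replicate 1 or oxozeaenol replicate 4, and 3 without oxozeaenol replicates 2 and 4. EIF2S2, a subunit of eIF2, was 1.71-fold lower (adjusted p 2.41e-06) and PABPC1, the poly(A)-binding protein, 1.58-fold higher (adjusted p 2.28e-06).

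Of 58 lysosome and autophagy genes 16 were higher (27.6% against 20.6% of all genes) and 17 lower (29.3% against 22.5%). The number higher was 10 without oxozeaenol replicates 2 and 4. The transcription factors TFEB, TFE3 and MITF that govern lysosome and autophagy genes were not called, with log2 fold changes of -0.27, 0.06 and 0.13. LIPA, the lysosomal acid lipase, stood at 70.5, 69.6, 71.9 and 76.3 CPM with PI103 and 143, 164, 185 and 221 CPM with oxozeaenol and was 2.47-fold lower (log2 fold change -1.31, SE 0.133, adjusted p 2.06e-08). CTSH, a cathepsin, was 1.70-fold lower (adjusted p 2.79e-07), whereas CTSB, another, was 1.58-fold higher (adjusted p 2.06e-06) and WIPI2, a protein of the autophagosome precursor, 1.498-fold higher (adjusted p 1.38e-06).

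Of 32 tested genes of mitosis 11 were higher with PI103 (34.4% against 20.6% of all genes) and 2 lower (MAD2L1 and CDC25A), and the median was 0.46, with 0.40 for PI103 and -0.03 for oxozeaenol against control. Averaged over the list, the PI103 libraries stood 0.37 to 0.43 above the control mean, and the oxozeaenol libraries ran from -0.38 in replicate 4 to 0.12 in replicate 1. CDC25C, a phosphatase that starts mitosis, was measured at 46.2, 45.0, 46.0 and 40.5 CPM with PI103 and 24.0, 21.3, 21.6 and 14.4 CPM with oxozeaenol and was 2.19-fold higher (log2 fold change 1.13, SE 0.197, adjusted p 7.06e-05). CENPF, a kinetochore protein, was 2.10-fold higher (adjusted p 4.39e-04). Over the whole cell cycle list 26 of 87 were higher (10 without oxozeaenol replicates 2 and 4) and 10 lower (6 without PI103 replicate 2 or 3, without oxozeaenol replicate 3, or without oxozeaenol replicates 2 and 4). Replication genes went both ways, with 6 of 39 higher (15.4% against 20.6% of all genes) and 5 lower (12.8% against 22.5%). Their median was -0.08, and the lower ones were GINS1, PCNA, POLE2, RFC3 and RFC5. GINS1, a subunit of the replicative helicase, was 1.35-fold lower (adjusted p 0.0105) and MCM5, another, 1.35-fold higher (adjusted p 0.00321), a call lost without oxozeaenol replicates 2 and 4 (0.0660, the highest of 16 alternatives from 3.16e-04 up). Among cyclins and inhibitors 9 of 16 were higher, led by CCND1, and 3 lower, CCNE2, CCND3 and CCNE1. CCNE2, cyclin E2, was 1.91-fold lower (adjusted p 5.30e-05), although 37.0% of its exon length lies opposite INTS8.

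BH3-only and other death genes of the BCL2 family went both ways, with 4 of 10 higher and 4 lower (PMAIP1, BIK, BAK1 and BID). That is 40% each way, against 20.6% and 22.5% of all genes. BMF, a BH3-only protein, stood at 54.2, 46.7, 50.3 and 51.0 CPM with PI103, 7.29, 7.64, 8.97 and 8.59 CPM with oxozeaenol and 12.9, 9.76, 12.8 and 10.2 CPM in control and was 6.24-fold higher (log2 fold change 2.64, SE 0.174, adjusted p 2.79e-11). BBC3 (PUMA), also a p53 target, was 1.92-fold higher (adjusted p 5.02e-06) and BOK 1.57-fold higher (adjusted p 7.87e-07), and BCL2L11 (BIM) completes the higher ones. Of 3 tested survival members BCL2L2 was higher (0.26, adjusted p 0.00869), and BCL2L1 was not called (0.14). In GENCODE BCL2L2 shares 19.4% of its exon length with BCL2L2-PABPN1 on the same strand, so its count is less certain. Targets of p53 showed no common direction, with 6 of 23 lower and 3 higher (BBC3, XPC and DDB2, and 5 when fitted on the 8 libraries alone) and a median of -0.11. The shares were 26.1% lower and 13% higher, against 22.5% and 20.6% of all genes. C12orf5 (TIGAR), a sugar phosphatase on that list, was 1.71-fold lower (adjusted p 1.43e-09).

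Protective genes were mostly lower with PI103. Of 21 chaperones of the endoplasmic reticulum 14 were lower and none higher (1 with the replicate number as a block, or without PI103 replicate 4 or oxozeaenol replicate 2), with a median of -0.43. Against control the median was 0.47 with oxozeaenol and -0.08 with PI103. CRELD2, a secreted factor of this response, stood at 31.6, 38.3, 36.5 and 33.8 CPM with PI103, 61.6, 56.7, 55.4 and 51.3 CPM with oxozeaenol and 26.5, 21.1, 24.5 and 22.9 CPM in control and was 1.61-fold lower (log2 fold change -0.68, SE 0.133, adjusted p 1.90e-04). HERPUD1, which helps to degrade misfolded proteins, was 1.86-fold lower (adjusted p 2.11e-05). Of 24 heat shock genes 10 were lower and 2 higher, HSPA1A and BAG3 (4 with the replicate number as a block or without oxozeaenol replicate 1, and 1 without oxozeaenol replicates 2 and 4). HSPB8, a small heat shock protein, was 2.62-fold lower (adjusted p 7.20e-10). Among 22 targets of NRF2 and glutathione genes 15 were lower and 1, ABCC3, higher (2 with the replicate number as a block or without oxozeaenol replicate 1), and the median was -0.41. HMOX1, heme oxygenase, was measured at 30.6, 31.9, 29.1 and 32.7 CPM with PI103 and 70.7, 64.3, 67.5 and 80.7 CPM with oxozeaenol, below and above the control range of 44.9 to 55.0 CPM, and was 2.28-fold lower (log2 fold change -1.19, SE 0.120, adjusted p 1.89e-08). AKR1C3, an aldo-keto reductase with near-identical relatives that can share its reads, was 8.33-fold lower (adjusted p 7.23e-07), and OSGIN1, an oxidative stress gene, 2.00-fold lower (adjusted p 3.80e-07). In the aryl hydrocarbon receptor battery 4 of 9 tested genes were lower (CYP1A1, ALDH3A1, NQO1 and UGT1A6) and 2 higher (TIPARP and ARNT). CYP1A1, its main enzyme, stood at 0.477, 0.503, 0.411 and 0.452 CPM with PI103, 6.21, 9.14, 6.24 and 12.2 CPM with oxozeaenol and 14.3, 14.04, 9.53 and 12.8 CPM in control and was 18.3-fold lower (log2 fold change -4.19, SE 0.536, adjusted p 1.85e-06). ALDH3A1 was 1.89-fold lower (adjusted p 4.30e-07). In GENCODE UGT1A6 shares 44.0% of its exon length with other UGT1A genes on the same strand, so its count is less certain.

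Interferon-response genes lay above control with both agents (medians 0.81 with PI103 and 0.72 with oxozeaenol) and differed gene by gene between them. Of 24 tested 9 were lower with PI103 and 5 higher (IRF7, OAS3, IRF9, IRF1 and STAT2). OASL was 1.92-fold lower (adjusted p 2.24e-07), with 18.6 to 21.2 CPM, 34.8 to 43.0 CPM and 10.8 to 14.8 CPM in PI103, oxozeaenol and control. IFI27 was 1.78-fold lower (adjusted p 3.22e-06), while IRF7, a factor that amplifies the response, was 2.08-fold higher (log2 fold change 1.06, SE 0.101, adjusted p 7.65e-09). Of 14 antigen presentation genes 2 were lower (B2M and PSMB8, 14.3% against 22.5% of all genes) and 1 higher, TAP2 (7.14% against 20.6%). TAP2 was not called without PI103 replicate 2 or 3 (adjusted p 0.0920 and 0.0830) or oxozeaenol replicate 2 or 4 (0.101 and 0.129). Its adjusted p had a range of 0.00436 to 0.606. B2M, the light chain of MHC class I, was 1.86-fold lower (adjusted p 0.00152), although PI103 and oxozeaenol overlapped (629, 541, 684 and 853 CPM against 769, 1068, 1407 and 1795 CPM). Complement genes were lower in 5 of 11 tested cases (CFI, C1S, C3, C1R and CD46, 2 of them at a filter of at least 1 CPM in 4 libraries) and higher in none. C1R was 2.02-fold lower (adjusted p 5.17e-05) and CD46, a regulator on the cell surface, 1.44-fold lower (adjusted p 0.00124). In GENCODE C1R shares 11.4% of its exon length with C1RL on the same strand.

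Differentiation markers changed in both directions. Of 19 epithelial genes 7 were higher and 5 lower (CLDN1, CLDN7, OCLN, ESRP2 and KRT20, 3 without oxozeaenol replicate 1). The shares were 36.8% higher and 26.3% lower, against 20.6% and 22.5% of all genes. Of 5 tested mesenchymal genes 2 were higher, VIM and SNAI1. VIM, vimentin, was 2.09-fold higher (adjusted p 1.76e-09). SNAI1, a repressor of E-cadherin, was 1.33-fold higher (adjusted p 0.0416), a call lost without PI103 replicate 1 or 2 (0.126 and 0.148) or oxozeaenol replicate 2 or 4 (0.115 and 0.146), in a range of 0.0110 to 0.489. KRT80, an epithelial keratin, was 2.06-fold higher (adjusted p 5.09e-06) and CLDN7, a tight-junction protein, 1.48-fold lower (adjusted p 3.23e-05). Gastric genes were lower in 5 of 11 tested cases (SOX2, TFF1, AGR2, CLDN18 and MUC1) and higher in 1. SOX2, a factor of foregut and stem cells, stood at 10.9, 14.7, 14.2 and 14.6 CPM with PI103, 43.7, 46.3, 39.6 and 40.6 CPM with oxozeaenol and 10.7, 8.64, 12.3 and 11.8 CPM in control and was 3.13-fold lower (log2 fold change -1.65, SE 0.188, adjusted p 2.27e-07), so that the PI103 libraries overlapped control and all 4 oxozeaenol libraries lay above. TFF1, a peptide secreted by gastric mucous cells, was 2.06-fold lower (adjusted p 7.98e-04), and GATA6, a factor of gut endoderm, 1.47-fold higher (adjusted p 8.03e-05). LYZ, lysozyme, did not differ detectably between the agents, with 187 to 333 CPM against 251 to 364 CPM (adjusted p 0.275), and both exceeded control (37.7 to 48.4 CPM). Of 9 tested intestinal genes 3 were lower and 3 higher. MUC13, a membrane mucin, was 2.51-fold lower (adjusted p 1.62e-06), CDH17, an intestinal cadherin, 1.68-fold lower (adjusted p 1.45e-06) and HNF4A 1.40-fold higher (adjusted p 0.00135). TFF3 was the third lower gene, and APOA1 and CDX2 were the other higher ones.

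**Figure D5:**
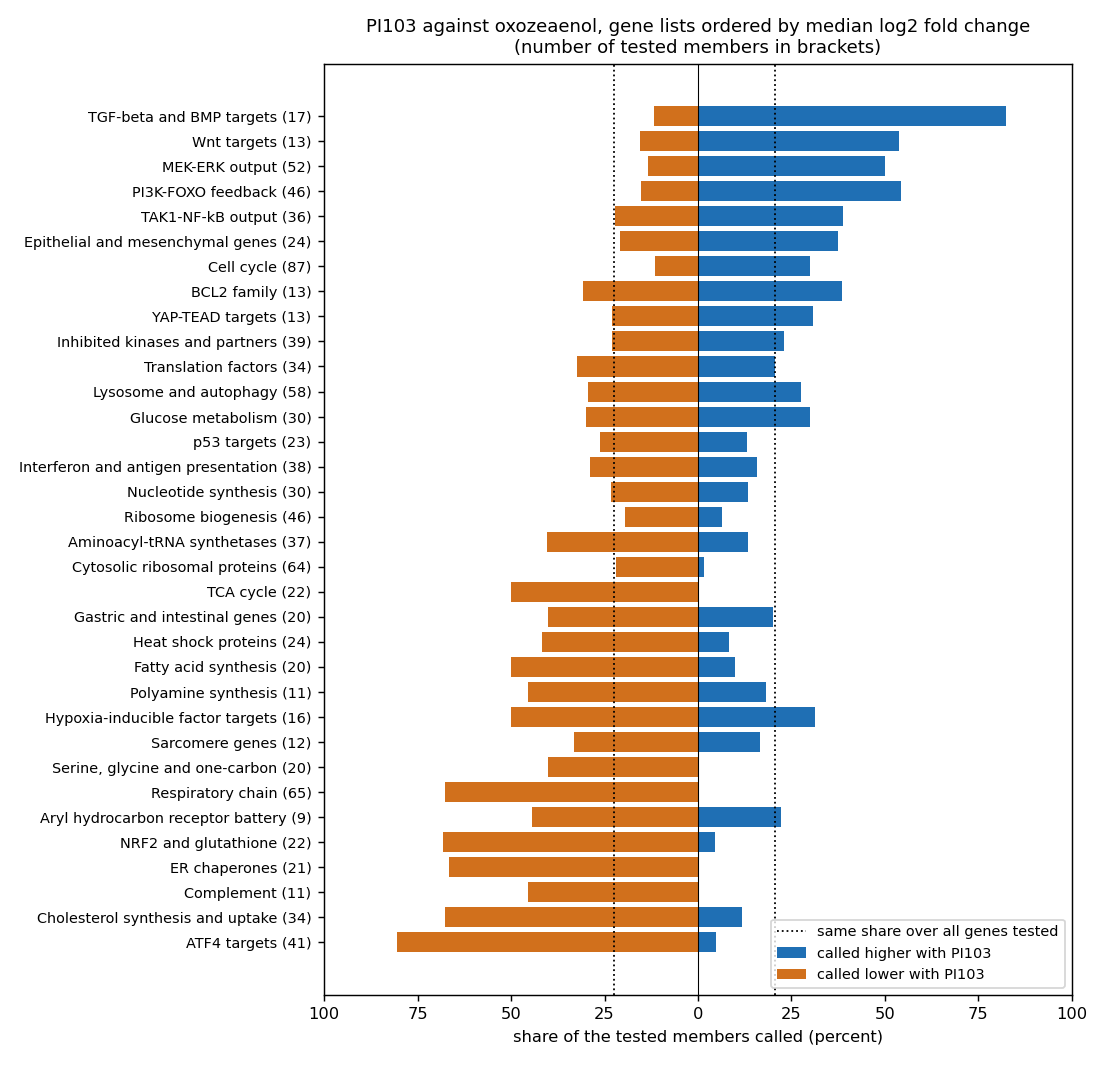
Percent of the tested genes called higher, for each list but the markers of other cell types, on the right, and lower, on the left, with PI103 than with oxozeaenol at an adjusted p under 0.05, with the lists ordered by their median log2 fold change. For all genes tested the shares are 20.6% higher and 22.5% lower, and ATF4 targets (80.5% lower) and TGF-beta and BMP targets (82.4% higher) lie at the ends.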

How the data were processed

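RNA-seq was done on 24 AGS libraries, 4 for each of 6 treatments, from 0.8 µg of total RNA with a stranded Illumina mRNA kit, per the labels' protocols. Per the deposited table, values are raw counts, whole numbers of reads for each gene symbol. GRCh38 is the genome build per the submitters' processing notes, while the aligner, the counter, its use of strand and the gene annotation are not given in the sources used here. The 5 closing tallies, among them reads in no gene (5.20 to 8.57% of the reads of PI103, oxozeaenol and control libraries), entered neither library sizes nor tests. The table has 0 other columns of per-sample values.

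Counts were fitted with edgeR 4.0.16 in R 4.3.3 (TMM scaling, its default filter on low counts, robust quasi-likelihood dispersions) with 1 coefficient per treatment over all 24 libraries, and PI103 minus oxozeaenol was tested for the 13947 genes that passed, which hold 99.989% of the counts. A gene was called at an adjusted p under 0.05 (Benjamini-Hochberg, two-sided). Levels are CPM, counts scaled to a TMM-scaled library of 1000000. P-values measure the spread between these libraries of 1 cell line, and the common biological coefficient of variation was 0.131. Between any 2 libraries of a treatment the chi-square per degree of freedom was at least 10.7, more than sampling noise gives.

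The batch number in the labels pairs libraries across treatments. As a check, deviations from the group means correlated at a mean r of 0.147 between PI103 and oxozeaenol libraries of the same number (4 pairs) and -0.0483 of different numbers (12 pairs). Only 1 same-number pair exceeded 0.1, that of replicate 4 at 0.387. PI103 replicate 2 with oxozeaenol replicate 1, of different numbers, reached 0.227. The fit without the block is the main one, and the fit with it is an alternative.

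Gene lists and members were chosen with earlier results of these data known, so no list was tested and each is described by counts and its median. Genes were named by a rule: the 12 largest rises and falls among called genes with a mean of at least 5 CPM and no overlap between the groups, 15 readout genes, and for each role of each list the 3 genes with the smallest adjusted p and a mean of at least 1 CPM. Overlaps between genes and exon lengths come from GENCODE 29 on GRCh38, and promoters from RefSeq on GRCh38.p14. A few genes counted in the lists are not reported here by name. The steps were tested on simulated data. DESeq2 1.42.0, other scalings and filters, a fit on the 8 libraries alone, a minimum change and leaving out each library were tried as alternatives.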

Additional observations from a re-analysis of the deposited data

Results flagged for a closer look

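The highest or lowest of the 4 libraries of a group stood apart, by Dixon's criterion at the 95% level, in 22 of 410 groups examined (205 named genes in PI103 and in oxozeaenol libraries), where chance gives 20.5. In PI103 replicate 1 these were NUPR1 at 0.338 CPM, DUSP10 at 7.92 CPM, CTGF at 149 CPM, SOX2 at 10.9 CPM and CDH17 at 123 CPM. In PI103 replicate 2 they were CHAC1 at 6.14 CPM, SLC6A9 at 5.55 CPM, TNIP1 at 80.2 CPM and UQCRFS1 at 204 CPM. PI103 replicate 4 stood apart in PAGE4 at 22.2 CPM, RPL27 at 1121 CPM and RPL24 at 892 CPM.

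Among the oxozeaenol libraries, replicate 1 stood apart in ACSS2 at 125 CPM, ACSL1 at 63.3 CPM and BOK at 46.1 CPM, replicate 2 in CTH at 42.8 CPM and replicate 3 in GINS1 at 307 CPM. Replicate 4 stood apart in TTN at 17.4 CPM, TLR4 at 9.44 CPM, NFKBIZ at 10.9 CPM, TAB1 at 18.9 CPM and SMAD7 at 11.04 CPM. PI103 replicate 1 and oxozeaenol replicate 4 held the most, 5 each.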

How the results depend on the processing

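No called difference of a named gene, in the fit reported or under an alternative, changed sign under any alternative, while ETV5, CD68 and NR1H3, whose difference between the agents was called in none, lay on both sides of 0 on the log2 scale (-0.15 to 0.12, -0.23 to 0.08 and -0.17 to 0.03). Upper quartile scaling turned the balance between the agents to 3071 higher and 2977 lower and gave 4372 higher and 2926 lower for PI103 against control and 4119 and 3094 for oxozeaenol. With a required change of more than 1 on the log2 scale, 413 genes were called between PI103 and oxozeaenol (186 higher, 227 lower), 469 between PI103 and control (193 higher, 276 lower) and 640 between oxozeaenol and control (387 higher, 253 lower). Leaving out 1 library at a time gave 5165 to 6166 genes between the agents (2436 to 2890 higher, 2654 to 3276 lower), 6553 to 6885 for PI103 against control (3298 to 3493 higher, 3221 to 3430 lower) and 6361 to 7222 for oxozeaenol against control (3113 to 3617 higher, 3248 to 3605 lower). With the replicate number as a block 6732 genes were called, 6004 of them among the 6014, and among the genes named by rule it added the calls of PIK3IP1, MYC, NFKB2 and ITGA5 (adjusted p 0.0391, 0.0345, 0.0265 and 0.0487) and removed none. Over the lists it gave 31 higher for the cell cycle, 18 higher for TAK1 and NF-κB output and 12 lower for fatty acid synthesis. Other scalings, filters, DESeq2 and the fit on the 8 libraries gave 5670 to 6218 genes. Without oxozeaenol replicates 2 and 4 the number was 4147, of which 3969 were among the 6014. Without a filter on low counts the lower genes numbered 5 for ribosome biogenesis, 5 for ribosomal proteins and 6 for the cell cycle. Of 188 called named genes, 17 lost their call in some setting other than the minimum change and 130 lost it under that. Depth limits genes of few counts such as IL8, TRIB3 and FGF21.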

Other observations

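Several genes were close to on in 1 treatment and off in the other, at levels too low for the rule on well-expressed genes, and they were chosen after their values were seen. ABCB1, the drug efflux pump P-glycoprotein, had 0 counts in all 4 PI103 libraries and 40 to 180 counts with oxozeaenol (1.93, 1.57, 1.14 and 3.18 CPM), against a mean of 0.0523 CPM in control. Set against 3 counts in a PI103 library as the limit that a count of 0 allows, ABCB1 was at least 39.5-fold lower with PI103. GSTA1, a glutathione transferase, was at least 4.59-fold lower in the same way, and ATP6V1B1, a subunit of the vacuolar proton pump, at least 6-fold lower. Of the called genes, 13 had 0 counts in every PI103 library and 0 had none in every oxozeaenol library. Oxozeaenol replicate 2 was the deepest of the 8 libraries (73993581 counts) and detected the most genes (18263). A gene is thus less readily at 0 in every oxozeaenol library, and these numbers are not on an equal footing. DMBT1, a mucosal scavenger protein, had 0 to 2 counts with PI103 and 59 to 126 with oxozeaenol, a mean of 1.80 CPM against 0.0087 CPM in control. TFF3, an intestinal trefoil peptide, had 0 to 4 counts with PI103 and 23 to 40 with oxozeaenol.

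In the other direction KRT75, a keratin of hair follicles, had 61 to 115 counts with PI103 and 1 to 3 with oxozeaenol. FBLN2, a matrix protein, had 61 to 102 counts against 0 to 3. IGFL1, a secreted protein of the insulin-like growth factor family, had 104 to 215 counts against 2 to 12 (adjusted p 5.30e-09 by edgeR's quasi-likelihood test). In control the mean levels of KRT75, FBLN2 and IGFL1 were 0.184, 0.241 and 0.320 CPM, between those of the agents.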
